A study of Homo sapiens with 3 samples.

Results

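The Hippo core genes are 10 genes at the centre of one signalling pathway: the coactivators YAP1 and WWTR1 (the protein TAZ), the DNA-binding factors TEAD1, TEAD2, TEAD3 and TEAD4, the kinases LATS1 and LATS2, the TEAD cofactor VGLL4 and NF2 (merlin). Peaks of BRG1, the SMARCA4-encoded ATPase of the SWI/SNF chromatin remodelling complex, were assigned to a member when the middle of the peak lay in its gene body, or within 100 kb with that gene as the nearest protein-coding gene. The stretch that meets this rule is called the domain of the gene. These 10 genes were taken from 19974 protein-coding genes on chromosomes 1 to 22 and X. Their domains held 12 of 6293 peaks of the overlap list, 34 of 17323 peaks of replicate 1 and 16 of 10082 peaks of replicate 2.

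The material was 12Z, a human cell line established from endometriotic epithelium, in its wild-type state and grown in serum-containing medium with no further treatment named. Chromatin immunoprecipitation followed by sequencing gave 2 BRG1 libraries with an antibody to BRG1. A further library was input chromatin from wild-type 12Z cells without antibody, and no peak list of its own was used here. There was no second genotype or treatment, so the comparisons are between replicates and between genes. Nothing in the labels says that the replicates came from separate cultures, and agreement between them may therefore be technical.

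In the Hippo pathway, the kinases LATS1 and LATS2 phosphorylate YAP1 and TAZ and so keep them out of the nucleus. When this brake is off, YAP1 and TAZ enter the nucleus, bind TEAD factors and activate genes of growth, matrix and cell shape. NF2 acts upstream of the kinases, and VGLL4 competes with YAP1 for TEAD. In epithelia the pathway responds to cell contact, polarity and tension.

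Of the 10 genes, 6 had at least 1 peak of the overlap list, called a shared peak: YAP1 had 5, TEAD1 had 3, and TEAD3, LATS2, VGLL4 and NF2 had 1 each. WWTR1, TEAD2, TEAD4 and LATS1 had none. Among all protein-coding genes 9.66% had one. The share was 20.2% for replicate 1, in which 7 members had a peak, and 11.4% for replicate 2, in which 6 had one. By its name the overlap list is the overlap of the 2 replicates, so being called in both is a property of a shared peak. The members were chosen with results of these data known, so these counts carry no test.

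**Figure D1:**
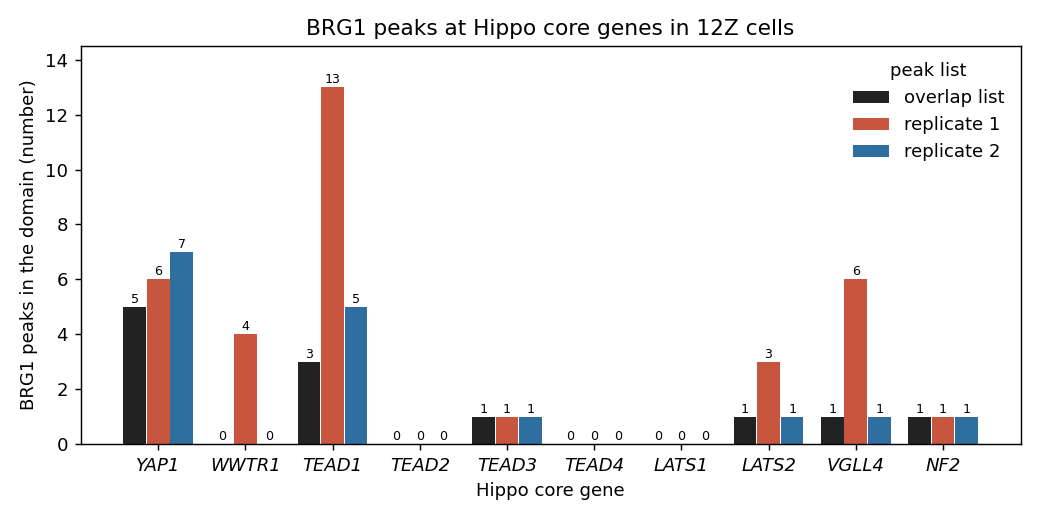
Number of BRG1 peaks (vertical axis) in the domain of each of the 10 Hippo core genes (horizontal axis), with 1 bar per peak list and the number above it. YAP1 holds 5 to 7 peaks in each list, TEAD1 and VGLL4 hold most of theirs in replicate 1 (13 and 6), WWTR1 holds 4 in replicate 1 alone, and TEAD2, TEAD4 and LATS1 hold 0.

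Domain length enters these counts, since a longer stretch can hold more peaks. The median domain of the 10 genes was 140 kb, against 56.5 kb for all genes. Among the 6758 genes with a domain of 100 kb or more, a class chosen after seeing the data, 19.9% had a shared peak, as did 5 of the 7 members in it. For replicate 1 the share in that class was 39% and the members 6 of 7, and for replicate 2 it was 23.4% and 5 of 7. When all genes were cut into 10 equal classes by domain length, the share with a shared peak ran from 0.801% in the class of shortest domains to 29.5% in that of the longest.

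**Figure D2:**
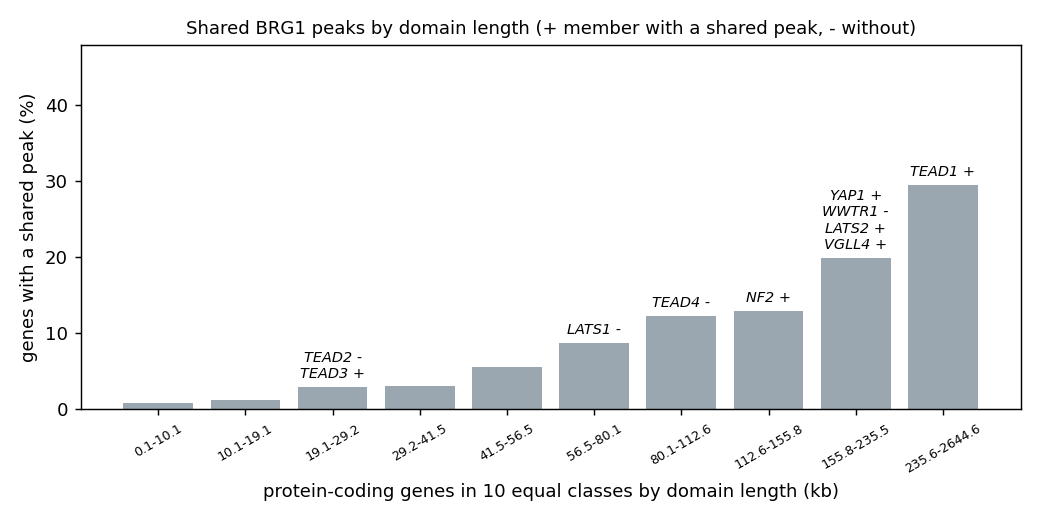
Percentage of protein-coding genes with a shared BRG1 peak (bars, vertical axis) in each of 10 equal classes of genes by domain length in kb (horizontal axis), with each Hippo core gene written above its class and marked + with or - without a shared peak. Shares climb from 0.801% to 29.5%. In the class of 155.8 to 235.5 kb, 3 of the 4 members carry a shared peak, against 19.9% of all genes in it. TEAD3 carries one and TEAD2 none in a class where 2.85% of genes do.

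YAP1, the transcriptional coactivator that Hippo signalling restrains, carried the most shared peaks of the 10 genes. Its 5 shared peaks ran over 135.7 kb of chromosome 11, from 102109776 to 102245432. Of all genes, 0.411% had 5 or more shared peaks, and 1.4% had 3 or more. Those cuts are the counts of YAP1 and TEAD1 themselves, and the shares cover genes of every domain length. YAP1 had 28.1 shared peaks per Mb of domain, a density below which 98.9% of genes lay. That share includes the 90.3% of genes that had no shared peak. Of its shared peaks 4 lay in the gene body and 1 beyond it. When each replicate had to reach a −log10 q of 2, YAP1 and TEAD1 had 2 shared peaks each, and with 50% of both peaks overlapping YAP1 had 2 and TEAD1 had 1.

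At the start of YAP1 the first shared peak (102109776 to 102112963, 3188 bp wide) covered the 250 bases before the annotated start. It had a fold enrichment over background of 3.07 and a −log10 q of 2.35, the authors' values for that peak. A −log10 q is larger for a stronger call. Replicate 1 had a peak of fold 3.54 there (102111544 to 102112542), and replicate 2 had peaks of fold 3.59 and 3.74 (102111574 to 102111791 and 102112306 to 102112724). None of the replicate peaks reached the 250 bases themselves. Replicate 1 began 1.10 kb and replicate 2 began 1.13 kb past that window, inside the transcribed side.

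Of the 16 windows of 250 bases before an annotated start that RefSeq lists for 8 of the 10 genes (assembly GRCh38.p14), the YAP1 window was the single one overlapped by a peak of any list. TEAD1 and TEAD4 were not matched in that table. The YAP1 window is printed because a shared peak covered it. The VGLL4 window is printed because it was the next nearest to a shared peak, 0.91 kb away, and the LATS2 window because LATS2 is the kinase gene with a shared peak. Its nearest replicate 1 peak lay 1.14 kb away, and another pair of VGLL4 windows, not printed, lay 0.22 and 0.6 kb from a replicate 1 peak. Each runs 5′ to 3′ toward the gene, and capitals mark the core letters of the TEAD motif, GGAATG, on either strand.
YAP1, chr11:102110197-102110446, plus strand: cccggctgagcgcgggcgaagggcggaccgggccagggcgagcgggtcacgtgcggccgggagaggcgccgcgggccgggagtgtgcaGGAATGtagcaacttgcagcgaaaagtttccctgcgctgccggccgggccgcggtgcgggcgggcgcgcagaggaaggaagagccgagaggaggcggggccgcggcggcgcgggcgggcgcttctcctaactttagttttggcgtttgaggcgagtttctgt
VGLL4, chr3:11643916-11644165, minus strand: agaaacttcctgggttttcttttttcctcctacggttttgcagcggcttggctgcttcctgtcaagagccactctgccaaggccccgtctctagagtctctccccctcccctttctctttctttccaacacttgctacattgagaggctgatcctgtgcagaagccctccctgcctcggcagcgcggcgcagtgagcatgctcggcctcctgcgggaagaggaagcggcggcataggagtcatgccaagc
LATS2, chr13:21061587-21061836, minus strand: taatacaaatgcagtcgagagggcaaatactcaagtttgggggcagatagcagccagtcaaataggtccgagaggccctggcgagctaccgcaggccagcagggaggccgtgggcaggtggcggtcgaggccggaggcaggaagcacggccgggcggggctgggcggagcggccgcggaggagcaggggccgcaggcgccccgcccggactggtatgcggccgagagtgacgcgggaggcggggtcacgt
In the YAP1 window the TEAD letters began 162 bases before the start. It was the only one of the 16 windows with them. Of all 35116 windows of that length in the table, 11.9% held them. The letters TGANTCA, a loose form of the AP-1 motif in which N is any base, occurred in 1 of the 16 windows. That was a LATS1 window, with TGAATCA, against 6.57% of all windows. The 2 motifs did not overlap in any of the 16 windows. These are matches of letters, not binding sites. The printed windows are rich in G and C, at 72.0% in YAP1, 69.6% in LATS2 and 58.0% in VGLL4. Over the 16 windows the share ran from 29.2% in a LATS1 window to 84% in that of TEAD3.

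Inside the YAP1 body the second shared peak (102137496 to 102140340) lay 28.5 kb from the start. Its fold was 3.78 in the overlap list, 4.59 in replicate 1 and 4.58 in replicate 2. The third shared peak (102170111 to 102172350) lay near the middle of the body, with folds of 3.29, 3.87 and 3.82 in the same order. The fourth (102226289 to 102227119) lay 6.7 kb before the far end of the body, with folds of 3.35, 3.53 and 3.89. These 3 were called in both replicates. At the first position the −log10 q of the replicate peaks was 1.60 to 1.89, at the third it was 1.92 in replicate 2, and at the fourth it was 1.69 in replicate 1. Where both replicates had to reach 2, only the second position and the one beyond the gene, described next, were left.

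The strongest YAP1 peak lay outside the gene. The fifth shared peak (102244824 to 102245432) was 11.7 kb past the end of the body, on the side of the next gene BIRC3, an inhibitor of apoptosis. It had a fold of 4.90 and a −log10 q of 8.64 in the overlap list. Replicate 1 had fold 4.76 with a −log10 q of 4.54, and replicate 2 had fold 5.30 with a −log10 q of 5.27. Its fold percentile was 99.5 in the overlap list, 98.2 in replicate 1 and 99.4 in replicate 2. It was assigned to YAP1 by distance alone, and the lists do not show which gene it serves.

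YAP1 also had peaks seen in a single library. Replicate 1 alone had one at 102177945 to 102178383 (fold 4.04), 5.8 kb from the nearest replicate 2 peak. Replicate 2 alone had one at 102116848 to 102116948 (fold 4.14), 4.3 kb from the nearest replicate 1 peak. Thus 5 of 6 replicate 1 peaks and 6 of 7 replicate 2 peaks of YAP1 were found in the other library, where found means an overlap of at least 1 bp.

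**Figure D3:**
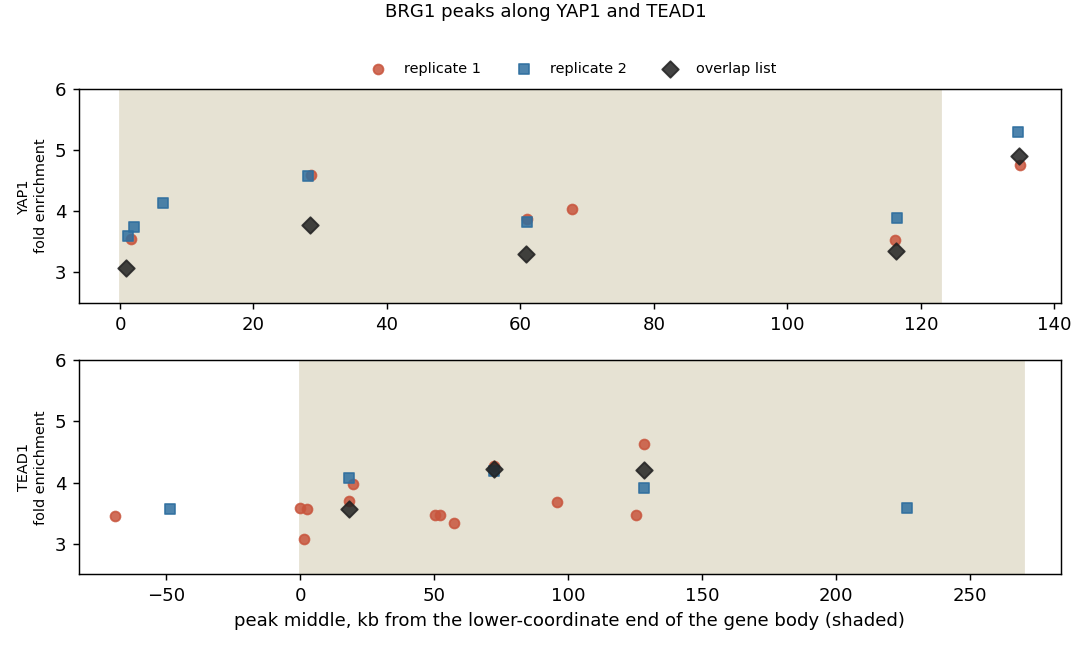
Fold enrichment (vertical axis, authors' values) of each BRG1 peak against the distance of its middle in kb from the lower-coordinate end of the gene body (horizontal axis, body shaded) for YAP1 and TEAD1, with diamonds for the overlap list, circles for replicate 1 and squares for replicate 2. At YAP1 the highest points of all 3 lists stand 11.7 to 11.8 kb beyond the body, and at TEAD1 both libraries meet at 18.3 to 18.4, 72.5 and 128.4 kb, while most other circles have no square beside them.

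WWTR1 encodes TAZ, the paralogue of YAP1, and had a different record in the 2 libraries. Replicate 1 had 4 peaks in its body on chromosome 3 and replicate 2 had 0, and no shared peak was assigned. The replicate 1 peaks had folds of 3.94 (149542423 to 149542780), 4.0 (149572887 to 149573138), 3.74 (149581743 to 149582169) and 3.32 (149603485 to 149603850). Their −log10 q values ran from 1.40 to 2.63. The nearest replicate 2 peak lay 68.6 to 129.6 kb away.

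Among all genes 0.37% had at least 4 replicate 1 peaks and no replicate 2 peak. That cut of 4 was taken from WWTR1 itself, and 96.3% of genes had fewer than 4 replicate 1 peaks. A replicate 1 peak without a shared peak was common: 4026 genes had a replicate 1 peak, and 2098 genes had one with no shared peak. All 4 WWTR1 peaks lay in the 41.6% of the body nearest its lower-coordinate end, and each was 54.4 kb or more from the nearer of its 2 annotated starts. WWTR1 had a longer domain than YAP1, 221.3 kb against 178 kb. Replicate 1 held more peaks than replicate 2 over the whole genome, and how far that difference enters here was not tested.

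TEAD1 was the TEAD gene with the most peaks, 3 shared, 13 in replicate 1 and 5 in replicate 2, in the longest domain of the 10 genes (372.1 kb). TEAD factors carry YAP1 and TAZ to DNA. Its shared peaks lay at 18.3, 72.5 and 128.4 kb from one end of the body, all nearer that end than the other. The density was 8.06 shared peaks per Mb, with 94.7% of genes lower. Of all genes 90.3% had no shared peak, so any gene with one ranks above them. LATS2, with 1 shared peak, had 93.5% of genes lower.

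The first shared peak of TEAD1 (chromosome 11, 12692444 to 12693021) had a fold of 3.57, and 3.70 in replicate 1 and 4.08 in replicate 2. The second (12746783 to 12747060) had folds of 4.23, 4.27 and 4.19 in the same order and a −log10 q of 6.08 in the overlap list. It was the narrowest shared peak of the 10 genes, at 278 bp, and nearly the same in both libraries, at 249 and 240 bp. The third (12802185 to 12803544) had folds of 4.21, 4.63 and 3.91, with a −log10 q of 5.57. Each was called in both libraries, as the overlap list implies, and neither library was the higher at all 3.

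The other 10 replicate 1 peaks of TEAD1 were not found in replicate 2. A group of 3 lay within 2.7 kb of the lower-coordinate end of the body, with folds of 3.59, 3.07 and 3.58, and the first of them (12674314 to 12674635) spanned that end. The nearest replicate 2 peak to any of them was 15.4 kb away. A further 2 lay close to a replicate 2 peak without touching it, at 0.6 kb (12693448 to 12694694, fold 3.98) and 2.4 kb (12799769 to 12800114, fold 3.47). Replicate 2 alone had a peak 48.6 kb outside the body (12625689 to 12625919, fold 3.57) and another inside it (12900635 to 12900969, fold 3.58).

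TEAD3 had 1 peak in each list, in the middle of a short body of 23.5 kb on chromosome 6. The shared peak (35485221 to 35486234) had a fold of 2.90, the lowest of the 12 shared peaks, and the folds were 3.10 in replicate 1 and 3.50 in replicate 2. With a domain of 25.3 kb, this single peak gave 39.5 shared peaks per Mb, the highest density of the 10 genes. In the class of genes of that domain length, 2.85% had a shared peak.

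TEAD2, on chromosome 19, and TEAD4, on chromosome 12, had 0 peaks in all 3 lists. Their domains were 21.8 kb and 108.8 kb long. The classes of genes of those lengths had a shared peak in 2.85% and 12.3% of cases, so a domain without one was the usual outcome. No peak of any list lay within 100 kb of TEAD2, whichever gene it belonged to. The read depth is unknown, and weaker BRG1 signal at these genes would not appear in a peak list.

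Of the kinases, LATS2 had peaks and LATS1 had none. The shared peak of LATS2 (chromosome 13, 21016693 to 21017979) lay in the middle of the body, 44.2 kb from the start, with a fold of 3.52. Replicate 1 had a narrow peak of 139 bp there with fold 4.30, and replicate 2 had one of 735 bp with fold 3.82. Replicate 1 alone had a peak 1.2 kb inside the start (21060328 to 21060452, fold 3.82) and another 18.4 kb upstream of it (21079665 to 21080328, fold 3.83). The nearest replicate 2 peaks to these were 42.3 and 61.6 kb away.

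LATS1 encodes the other kinase of the pair. No peak of any list lay within 100 kb of its body, and its domain was 67.6 kb, a length at which 8.71% of genes had a shared peak. The difference between the 2 kinase genes was not tested, since 1 peak against 0 cannot carry a test.

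VGLL4 binds TEAD in competition with YAP1. Its shared peak (chromosome 3, 11642550 to 11643005, fold 3.48) lay 1.1 kb inside one of the 5 annotated starts of the gene, in the middle of the body. The fold there was 3.81 in replicate 1 and 3.8 in replicate 2. Replicate 1 had 5 further peaks and replicate 2 had none, so the libraries met at a single position.

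Of those 5 further peaks of replicate 1, 4 lay within 3 kb of an annotated start of VGLL4, at 0.4, 0.7, 1.5 and 1.9 kb on its transcribed side. Their folds ran from 3.48 to 3.66. The one at 11568246 to 11568577 also lies in the body of the neighbouring gene ATG7, and is counted for both genes. The fifth (11600500 to 11600616) was the strongest replicate 1 peak of the 10 genes by fold, 5.57, and by −log10 q, 6.05. Its fold percentile in that list was 99.8. It was only 117 bp wide, and the nearest replicate 2 peak lay 42.2 kb away.

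NF2 encodes merlin, an upstream activator of the kinases and a tumour suppressor. It had 1 peak in each list, 18.4 to 18.9 kb inside the nearest annotated start on chromosome 22. The shared peak (29621521 to 29623562) had a fold of 3.13, with 3.81 in replicate 1 and 3.71 in replicate 2. Its −log10 q of 2.27 was the lowest of the 12 shared peaks.

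**Figure D4:**
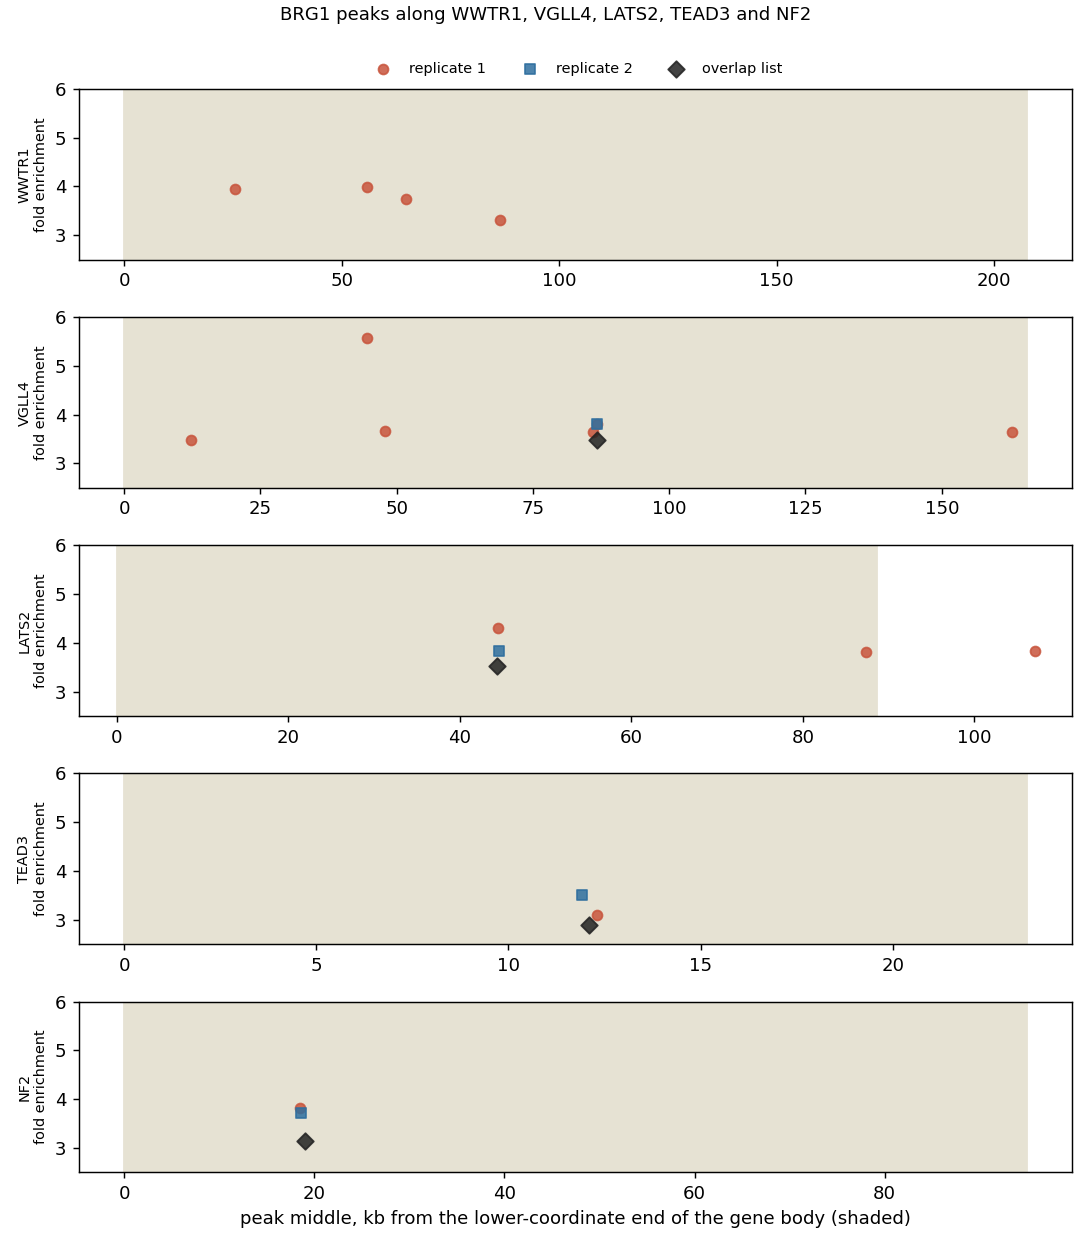
Fold enrichment (vertical axis, authors' values) of each BRG1 peak against the distance of its middle in kb from the lower-coordinate end of the gene body (horizontal axis, body shaded) for WWTR1, VGLL4, LATS2, TEAD3 and NF2, with diamonds for the overlap list, circles for replicate 1 and squares for replicate 2. WWTR1 shows 4 circles and no square, VGLL4 has its highest circle at fold 5.57 without a square, and TEAD3, LATS2 and NF2 each have a single position shared by both libraries.

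Across the 10 genes, replicate 2 recovered 35.3% of the peaks that replicate 1 had (12 of 34, exact Clopper-Pearson 95% interval 19.7 to 53.5%). Over all replicate 1 peaks within 100 kb of a protein-coding gene the share was 33.0% (interval 32.1 to 34.0%), inside the interval of the members. In the other direction the share was 81.2% of replicate 2 peaks (13 of 16, interval 54.4 to 96.0%), against 74.1% (interval 72.8 to 75.4%) of all such peaks. These intervals cover counting error only and treat neighbouring peaks as independent. The genes differed among themselves: 5 of 6 replicate 1 peaks were found at YAP1, 3 of 13 at TEAD1, 1 of 6 at VGLL4 and 0 of 4 at WWTR1.

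Replicate 1 peaks of the members that were found in replicate 2 had a median fold of 3.84 (range 3.10 to 4.76, n = 12), against 3.64 (range 3.07 to 5.57, n = 22) for those not found. The range of those found lay inside the range of those not found, and the strongest, of fold 5.57, was not found. The median −log10 q was 2.39 for those found and 1.92 for those not found. Median widths were 604 and 339 bp. Every one of the 12 shared peaks was wider in the overlap list than in either replicate and had a higher −log10 q there, as had 94.7% and 91.8% of all shared peaks near genes. The fold was lower in the overlap list than in both replicates for 9 of the 12 (75.0%), against 85.6% of all shared peaks near genes.

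The shared peaks of the Hippo core genes lay mostly inside gene bodies, 11 of 12 (91.7%), against 56.9% of all shared peaks within 100 kb of a gene. Bodies also filled most of the domains of the genes with a shared peak, from 88.6 of 162.9 kb at LATS2 to 165.7 of 165.8 kb at VGLL4. YAP1 and TEAD1 held 5 and 3 of the 12 peaks. How far this enters the 91.7% was not tested. The member peaks had a median fold of 3.50, close to the 3.47 of all shared peaks within 100 kb of a gene. Their median width was 1150 bp against 992 bp. A −log10 q of 5 or more in the overlap list was reached by 3 of the 12, the peak beyond YAP1 and the stronger pair of TEAD1, against 14.9% of such peaks. None of the 12 reached 5 in both replicates. Whether a peak in a body lies in an exon or an intron was not determined here.

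Within 3 kb of either end of a gene, shared peaks lay at 1 member, YAP1, against 2.24% of all genes. In replicate 1 such peaks lay at 4 members, YAP1, TEAD1, LATS2 and VGLL4 (6.85% of all genes), and in replicate 2 at YAP1 alone (3% of all genes). Counting any annotated start of the 8 matched genes, 2 of 9 shared peaks, 7 of 21 replicate 1 peaks and 3 of 11 replicate 2 peaks lay within 3 kb. These counts use the middle of each peak, which lay on the transcribed side of the start in every case, although the first YAP1 shared peak also extended upstream. Over all genes with a listed start, the shares of peaks whose middle lay within 3 kb of one were 10.0% in the overlap list, 13.8% in replicate 1 and 12.2% in replicate 2. Most of the 7 replicate 1 peaks lay at VGLL4, which has 5 annotated starts, the most of the 8 genes. Most of the 3 replicate 2 peaks lay at YAP1. The member peaks are few and share genes, so the difference carries no test.

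Of 35 further Hippo pathway genes, 12 (34.3%) had a shared peak, against 9.66% of all genes. A replicate 1 peak was present at 19 (20.2% of all genes) and a replicate 2 peak at 13 (11.4% of all genes). The median domain of this list was 133 kb, and its genes held 28 shared peaks. Of its 23 genes with a domain of 100 kb or more, 12 had a shared peak, 17 a replicate 1 peak and 13 a replicate 2 peak, where the shares over all genes of that class were 19.9%, 39% and 23.4%. STK4, which encodes the kinase MST1 that activates the LATS kinases, had 6 shared peaks, 1 more than YAP1, in a domain of 122.2 kb. They lay between 45011081 and 45068177 on chromosome 20, all in the gene body, with folds of 2.82 to 3.66. STK3, which encodes the paralogous kinase MST2, had 3.

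FRMD6, an upstream scaffold gene, had 4 shared peaks with folds of 3.0 to 3.48. WWC1, which encodes the upstream activator KIBRA, had 4 with folds of 3.08 to 3.20, and WWC2 had 2, of fold 3.26 and 3.94. AMOTL2, which encodes an angiomotin that holds YAP1 at junctions, had 3, all 24.0 to 39.6 kb outside its body, with folds of 3.22 to 3.53. The strongest YAP1 peak, at fold 4.90, exceeded all of these. The other 23 of the 35 genes had no shared peak.

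The genes most like YAP1 in their numbers of shared, replicate 1 and replicate 2 peaks were compared among 4052 genes with a domain within a factor of 1.5 of its own. The measure was the distance between log2(number + 1) over the 3 lists, which are not independent of each other. WWC1 and PARVA, an integrin-linked adhesion gene next to TEAD1, each had 4, 7 and 6 peaks (distance 0.38). UQCC1 had 4, 5 and 6 (0.39), TFAP2A, a transcription factor gene, had 5, 6 and 5 (0.42), and VMP1 had 4, 8 and 7 (0.45).

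BRG1 peaks are not a measure of expression, so the labelled cell type could not be checked from them. Shared peaks lay at the epithelial keratin genes KRT7 (1), KRT8 (3) and KRT18 (1) and at none of KRT19, CDH1 and EPCAM. Of the stromal or mesenchymal markers PDGFRB, THY1 and DCN had 1 each and VIM had 0. The endothelial genes PECAM1 and CDH5 and the immune genes PTPRC and CD68 had 0. Among the markers without a shared peak, replicate 1 had 3 peaks at VIM, 2 at PECAM1 and 1 each at CDH5, KRT19 and CDH1. Replicate 2 had 1 each at VIM and EPCAM. Of all genes 9.66% had a shared peak, 20.2% a replicate 1 peak and 11.4% a replicate 2 peak.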

How the data were processed

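BRG1 binding was measured by ChIP-seq in 2 libraries of wild-type 12Z cells, with 1 input library. The submitters' processing notes name MACS2, which calls peaks, the aligner Bowtie2, the trimmers Trim Galore and cutadapt, and bedtools, Picard and SAMtools, with build GRCh38.p12. For versions, settings and pooling of reads in the overlap call, the sources used here give nothing. The deposited broad peak lists give the authors' fold enrichment (a ratio over background) and −log10 of the p-value and q-value for each peak. The deposited score column was not used. Lists hold no read counts, so depth is unknown.

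Computation used pandas 2.3.3, scipy 1.17.1 and numpy 2.4.6 in Python 3.11.15, and figures matplotlib 3.10.9. Coordinates are the authors', counted from 1. Protein-coding genes and promoter windows came from RefSeq tables of GRCh38.p14. Patch releases leave chromosome coordinates unchanged, and apart from those windows no gene coordinates are printed. Domain lengths count overlapping gene bodies for each gene. A peak inside several bodies counted for each. Assignment and overlap were tested on simulated data (787 peaks, 300 genes), and 100% of assignments were recovered.

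The members and gene lists were chosen with earlier results of these data known. Named genes are the 10 members, the 6 further pathway genes with the most shared peaks, the 5 genes most like the member with the most, neighbours and markers. No group comparison or p-value was computed. Alternatives changed the distance limit, the list, the q threshold, the overlap and the end window.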

Additional observations from a re-analysis of the deposited data

How the results depend on the processing

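The 6 genes with a shared peak were the same within 50 kb, within 1 Mb and with 1 gene per peak, each with 12 peaks. Of all genes 8.91%, 10.8% and 9.58% had one in the same order. The 6 genes were also the same with gene bodies only, where YAP1 had 4 peaks in place of 5 and the 6 genes 11. With gene bodies only, 9 of the further pathway genes and 5.95% of all genes had one. Stricter peaks reduced them. When each replicate had to reach a −log10 q of 2, 3 genes (YAP1, TEAD1 and VGLL4), 5 peaks and 8 further pathway genes were left, and 6.06% of all genes. At 5, 0 genes and 0 peaks were left, 0 of the further pathway genes, and 0.125% of all genes. With 50% of both peaks overlapping, 2 genes (YAP1 and TEAD1), 3 peaks and 5 further pathway genes were left, and 3.1% of all genes. The share of peaks found in the other library then fell from 35.3 to 17.6% for replicate 1 and from 81.2 to 37.5% for replicate 2. Leaving out a replicate (without replicate 1 or 2) gave 6 to 7 genes, 16 to 34 peaks and 13 to 19 further pathway genes. Of all genes 11.4 to 20.2% then had a peak in the domain. A peak at a gene end was then present at 1 to 4 members, against 3 to 6.85% of all genes. Without replicate 2, WWTR1 joined with 4 peaks, and TEAD1 had 13 in place of 3. Why these counts moved was not tested. No paired analysis was possible because the 2 libraries form a single group and no test was run. The unknown depth limits what can be said of genes without a peak.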

Other observations

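Peaks of neighbouring genes lay within 100 kb of several Hippo core genes and were not counted for them. At YAP1 one was a shared peak assigned to CEP126, 99.1 kb from the YAP1 body (chromosome 11, 102011037 to 102011621), with a fold of 5.41 in the overlap list, 5.90 in replicate 1 and 5.80 in replicate 2. Another lay in BIRC3, 90.7 kb on the other side (102323811 to 102324454), with folds of 3.92, 3.55 and 4.96. The 7 shared peaks within 100 kb of the YAP1 body thus included both.

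At WWTR1, the nearest shared peak lay 43.4 kb from the body, beside TM4SF4, a membrane protein gene (chromosome 3, 149473141 to 149474522, fold 3.29). Replicate 1 had a peak of fold 3.66 there and replicate 2 one of fold 3.81. At TEAD4, the nearest lay 77.0 kb away in TSPAN9, a tetraspanin gene (chromosome 12, 3117276 to 3118037, fold 3.40), with folds of 3.53 and 4.20 in the replicates. At TEAD3 a shared peak lay in PPARD, a nuclear receptor gene, 48.4 kb away (chromosome 6, 35425010 to 35425321, fold 2.96).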
